A study of Mus musculus with 18 samples.

Results

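The TNF superfamily ligands described here are 7 genes, Tnf, Lta, Ltb, Tnfsf8, Tnfsf10, Fasl and Tnfsf14, chosen by name from the 41388 genes in the files and followed in NK cells that differ in the transcription factor Eomes and in maturation. RNA was sequenced from NK cells purified from pooled spleens of C57BL/6 mice, in 18 libraries that form 6 groups of 3. KO cells came from mice with 3 engineered loci: the tamoxifen-inducible Cre iCreERT2 knocked into 1 Ncr1 allele, the Rosa26YFPLSL reporter and homozygous Eomesfl/fl. These mice were given tamoxifen and are called ILC-EomesΔ/Δ in the labels. The comparison cells came from mice labelled WT. Surface proteins separated 3 successive steps of maturation in both genotypes: CD27+CD11b- cells are stage II, cells positive for both proteins are stage III, and CD27-CD11b+ cells are stage IV. Mice were 8 to 12 weeks old, tamoxifen treatment lasted 3 days, and 3 separate experiments were run. Cre is driven from Ncr1, so deletion is limited to cells that use this NK and innate lymphoid gene, and the controls are not stated to carry Cre or to have received tamoxifen, so neither can be told apart from the loss of Eomes. The number of mice pooled per library and the experiment behind each replicate number are not given in the labels, so p-values measure the spread between these libraries.

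TNF superfamily ligands are made as trimers, mostly anchored in the membrane of the cell that makes them, and bind receptors of the TNF receptor superfamily on neighbouring cells. Receptors with a death domain, such as Fas and the receptor for Tnfsf10 (TRAIL), can start apoptosis through Fadd and caspase 8, and others recruit TRAF adaptors and activate NF-kappaB. In NK cells, Fas ligand and TRAIL are used to kill target cells alongside perforin and granzymes, TNF is a secreted inflammatory cytokine, and the lymphotoxins signal to stromal and myeloid cells of lymphoid organs.

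Total counts ran from 18684350 to 28365837 per library, and levels are given as CPM, counts relative to a library size that was scaled by edgeR's TMM factors. Eomes RNA was between 51.4 and 71.1 CPM in KO stage II, against 169 to 209 CPM in WT stage II. It was 153 to 181 CPM in KO stage III against 255 to 282 CPM in WT stage III, and 86.2 to 119 CPM in KO stage IV against 244 to 280 CPM in WT stage IV, so Eomes RNA was lower in KO cells at each stage but present. NK cell genes such as Klrb1c (1989 to 3269 CPM) and Nkg7 (5271 to 19480 CPM) were high in every library. Of 11 NK cell markers, 2 were called lower in KO cells at stage II. At stage III, 1 was called higher and 1 lower, and at stage IV 0 were called. Gzma was at 735 to 917 CPM in KO stage II against 3081 to 3590 CPM in WT stage II. Prf1 was at 447 to 903 CPM in KO stage III against 1545 to 1692 CPM in WT stage III. KO stage III replicates 1 and 3 stood apart, with the fewest detected genes (14824 and 16536) and the largest share of counts in 10 genes (17.0% and 20.6%). Ncr1, the gene that carries Cre, was at 1631 to 2216 CPM in the 9 KO libraries and at 2043 to 2102 CPM in replicate 1 of WT, against 3574 to 4189 CPM in replicates 2 and 3 of WT. Xist, the RNA of the inactive X chromosome, was at 34.3 to 41.9 CPM in the same 3 WT libraries and at most 0.648 CPM in the other 6, whereas KO libraries had 7.23 to 34.5 CPM. WT replicate 1 thus differed from WT replicates 2 and 3 in both measures at every stage.

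**Figure D1:**
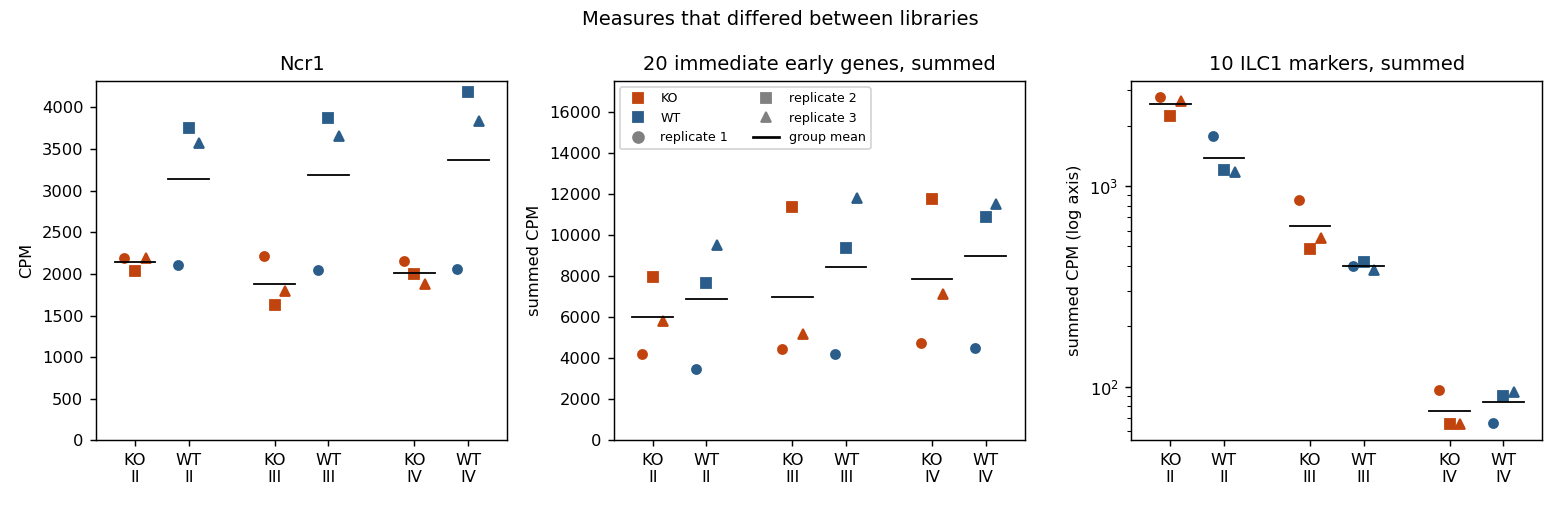
Ncr1 CPM, the summed CPM of 20 immediate early genes and the summed CPM of 10 ILC1 markers (log axis) in each of the 18 libraries, by genotype and stage; symbols mark replicate numbers and lines the group means. Ncr1 in WT replicate 1 lies at the level of KO libraries, and replicate 1 has the lowest immediate early sum of every group.

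Loss of Eomes was accompanied by higher RNA of several of these ligands. Tnf, Lta, Tnfsf8 and Tnfsf10 were higher in KO than in WT cells at stage III, Tnf and Tnfsf8 at stage IV, and Tnfsf10 alone passed at stage II, while Fasl and Tnfsf14 passed in no stage. A gene was called at an adjusted p under 0.05 in edgeR's quasi-likelihood test over 14156 tested genes, and all 7 ligands passed the filter on low counts. At stage II, 1 of 7 ligands was called higher, where 0.466% of all tested genes were. At stage III the count was 4 of 7 against 5.16% of all tested genes, and at stage IV it was 2 of 7 against 0.24%. The ligands were chosen with earlier results of these data known, so these counts describe them and do not measure an excess. With all 18 libraries and the filter on low counts, no ligand was called lower in KO cells at any stage by edgeR, DESeq2 or limma voom. At an adjusted p under 0.05 edgeR called 0.996% of all tested genes lower at stage II, 2.75% at stage III and 0.268% at stage IV. At an unadjusted p under 0.05 it gave 0, 0 and 1 ligand lower (Tnfsf14) at stages II, III and IV. The share of all tested genes at an unadjusted p is not given, so those counts have no matching share. With no filter, edgeR did call Tnfsf14 lower at stages III (-1.05, adjusted p = 1.47e-05) and IV (-1.33, 9.82e-08) and Fasl at stage III (-0.73, 0.00397), and with the replicate number as a block it called Fasl lower at stage III (-0.73, adjusted p = 0.0378). The median log2 fold change of the 7 ligands, KO over WT, was 0.73 at stage II, 1.14 at stage III and 1.27 at stage IV, against -0.01, 0.02 and 0.02 over all tested genes. In sorted bulk samples, a change in the share of cells that make a ligand and a change in RNA per cell cannot be told apart.

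**Figure D2:**
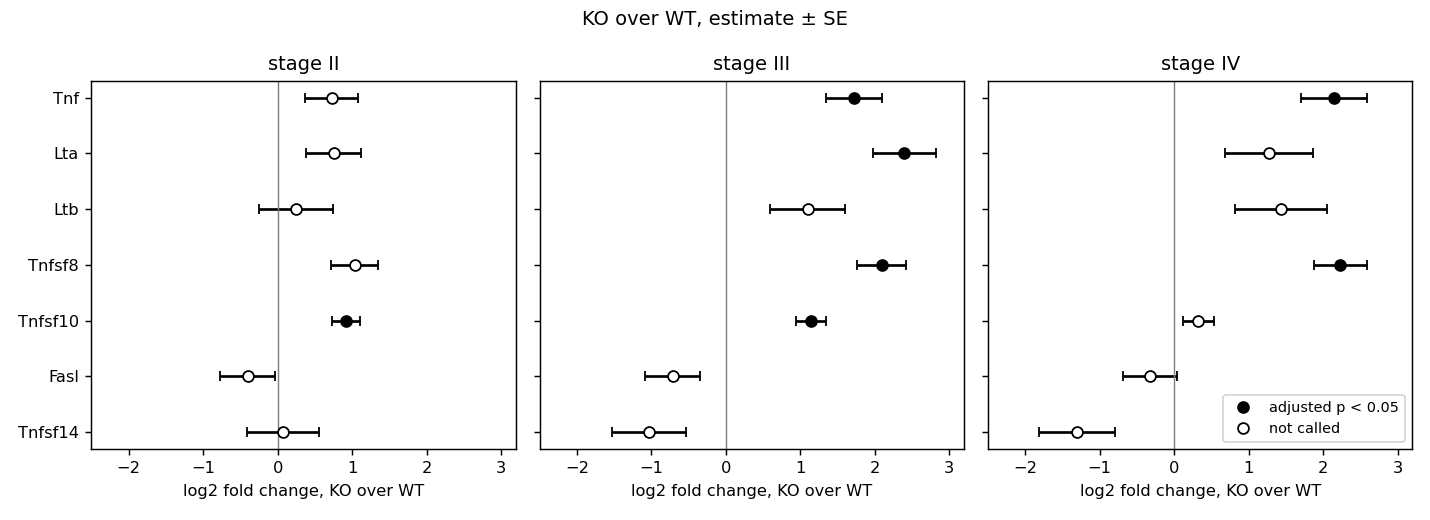
Log2 fold change of each ligand, KO over WT, at stages II, III and IV, with standard errors; filled points passed an adjusted p of 0.05. Tnf, Lta, Tnfsf8 and Tnfsf10 lie to the right of 0 in every stage, Fasl to the left in every stage, and Tnfsf14 lies to the left at stages III and IV.

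Markers of ILC1, a related innate lymphoid cell that can also carry CD27 without CD11b, moved in the same comparisons. Their summed level over 10 genes, none of them a ligand described here, was 2244 to 2769 CPM in KO stage II and 1170 to 1778 CPM in WT stage II. It was 485 to 855 CPM in KO stage III against 380 to 417 CPM in WT stage III, and 65.1 to 96.6 CPM in KO stage IV against 66.2 to 94.5 CPM in WT stage IV. Of these 10 markers, 4 were called higher in KO cells at stage II, 9 at stage III and 2 at stage IV, where 1 was called lower. Cxcr3, the marker called lower (-1.49 ± 0.27, adjusted p = 0.0183), made up much of the WT sum at stage IV, with 14.4 to 31.7 CPM in KO cells and 45.95 to 71.7 CPM in WT cells. The 2 called higher were Zfp683 (5.29 ± 0.39, adjusted p = 3.07e-06), with 5.50 to 10.3 CPM in KO cells and 0.164 to 0.250 CPM in WT cells, and Cxcr6 (2.48 ± 0.52, adjusted p = 0.045), with 9.08 to 20.8 CPM in KO cells and 1.84 to 2.71 CPM in WT cells. The summed level thus overlapped between genotypes at stage IV while single markers lay apart in both directions, and the median log2 fold change of the 10 markers there was 0.83. The part of such cells in the ligand values was not tested.

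RNA of the surface proteins used to sort the stages also differed between genotypes. Itgam, which encodes CD11b and rises with maturation, was called lower in KO cells at stage III (-1.35 ± 0.32, adjusted p = 0.0225), with 105 to 293 CPM in KO cells and 396 to 454 CPM in WT cells. At stage II it was at 16.9 to 25.3 CPM in KO cells and 40.8 to 54.0 CPM in WT cells (-1.20 ± 0.32, adjusted p = 0.089). Cd27, which is lost in the last stage, was called lower in KO cells at stage IV (-0.92 ± 0.18, adjusted p = 0.0329), with 30.2 to 46.6 CPM in KO cells and 50.5 to 83.4 CPM in WT cells. The part of a difference in maturity within a sorted stage in the ligand values was not tested.

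Tnf, Lta and Ltb are neighbours on mouse chromosome 17 in the class III region of the major histocompatibility complex. On GRCm38, Ltb lies at chr17:35194439-35196320 on the plus strand, Tnf at chr17:35199381-35202007 on the minus strand and Lta at chr17:35203165-35205351 on the minus strand, with 3060 bases between Ltb and Tnf and 1157 bases between Tnf and Lta. Their promoters are shown because these 3 adjacent genes all fell with maturation, as described below. The sequences come from RefSeq, build GRCm38.p6, are written 5′ to 3′ on the strand of the gene, and stop before the annotated start of the gene; capitals mark a match to the NF-kappaB consensus.
Tnf, 250 bases, chr17:35202008-35202257, minus strand: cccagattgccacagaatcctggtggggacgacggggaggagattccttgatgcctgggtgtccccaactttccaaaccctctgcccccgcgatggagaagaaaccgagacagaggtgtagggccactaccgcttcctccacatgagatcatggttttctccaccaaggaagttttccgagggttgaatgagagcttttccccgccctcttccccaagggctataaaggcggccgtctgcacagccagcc
Lta, 250 bases, chr17:35205352-35205601, minus strand: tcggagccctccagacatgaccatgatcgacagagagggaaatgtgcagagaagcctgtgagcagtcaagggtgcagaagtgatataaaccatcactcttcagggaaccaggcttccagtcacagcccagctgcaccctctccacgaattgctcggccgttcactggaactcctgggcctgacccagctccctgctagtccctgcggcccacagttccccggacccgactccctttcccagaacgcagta
Ltb, 182 bases, chr17:35194257-35194438, plus strand: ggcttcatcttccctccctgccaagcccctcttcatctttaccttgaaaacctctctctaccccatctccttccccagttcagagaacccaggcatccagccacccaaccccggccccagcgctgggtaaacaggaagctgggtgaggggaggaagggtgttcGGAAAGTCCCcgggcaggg
In the 250 bases before each RefSeq start, the NF-kappaB consensus was found, on either strand, in Ltb alone of the 7 ligands, as GGAAAGTCCC 87 bases before the start. The RefSeq start of Ltb lies inside the annotated gene. Its printed sequence stops before the annotated start and so holds 182 of the 250 bases, which places the marked word nearer its end. The NF-kappaB consensus was found in 2382 of 32851 mouse promoter windows of 250 bases, or 7.25%. The core word of T-box factors, the family of Eomes, GGTGTGA or TCACACC on the other strand, was in none of the 7 windows and in 1095 of the 32851 windows, or 3.33%. The 2 motifs do not overlap each other in any ligand window, and a missing word says only that these letters are not in this window.

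Tnf encodes the cytokine TNF, which acts on the receptors Tnfrsf1a and Tnfrsf1b. At stage II it was at 39.6, 50.2 and 43.1 CPM in the KO libraries of replicates 1, 2 and 3, against 22.5, 28.96 and 28.96 CPM in the WT libraries. At stage III it was at 12.0, 24.8 and 25.0 CPM in KO cells, against 3.39, 8.45 and 6.85 CPM in WT cells. At stage IV the values were 3.86, 4.36 and 3.38 CPM in KO cells, against 0.246, 1.38 and 0.997 CPM in WT cells. Every KO library was above every WT library of its stage, and successive stages did not overlap in either genotype. How many of all tested genes were separated in this way was not counted, here or for the ligands below. The log2 fold change, KO over WT, was 0.73 ± 0.35 (SE) at stage II, with an adjusted p of 0.589. It was 1.72 ± 0.37 (adjusted p = 0.0147) at stage III and 2.15 ± 0.44 (adjusted p = 0.0425) at stage IV. Limma voom called the stage II difference (0.70, adjusted p = 0.0221). So did edgeR on the compared groups alone (0.72, 0.0311) and with no filter (0.74, 0.0471). DESeq2 and edgeR with the replicate block did not. The stage III call ended without KO replicate 3 (1.53, adjusted p = 0.0563), WT replicate 1 (1.42, 0.0784) or WT replicate 3 (1.78, 0.0728) of that stage. The stage IV call held with any 1 of KO stage III replicates 1, 2 or 3, WT stage III replicate 1 or WT stage IV replicate 2 left out and ended with any of the other 13 libraries left out, with log2 fold changes from 1.68 to 2.67 and an adjusted p of up to 0.204.

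Lta encodes lymphotoxin alpha, which is secreted as a trimer or joins lymphotoxin beta at the cell surface. KO stage II cells had 34.2, 34.2 and 27.5 CPM, against 21.9, 18.9 and 16.04 CPM in WT stage II cells. KO stage III cells had 2.73, 10.8 and 6.82 CPM, against 1.43, 1.65 and 0.790 CPM in WT stage III cells. Lta was scarce at stage IV, with 14, 17 and 14 counts in the KO libraries (0.740, 0.687 and 0.550 CPM) and 3, 4 and 11 counts in the WT libraries (0.123, 0.167 and 0.548 CPM). All KO libraries lay above all WT libraries of the same stage, although at stage IV by little (0.550 CPM in the lowest KO library and 0.548 CPM in the highest WT library). The difference passed the test at stage III, with a log2 fold change of 2.40 ± 0.42 and an adjusted p of 0.00402, which is a 5.26-fold higher level in KO cells. At stage II it was 0.76 ± 0.37 (adjusted p = 0.593) and at stage IV 1.27 ± 0.59 (adjusted p = 0.884). Limma voom (0.85, adjusted p = 0.000775) and edgeR on the compared groups alone (0.74, 0.0471) called the stage II difference. DESeq2 and edgeR with the replicate block did not.

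Ltb encodes lymphotoxin beta, the membrane anchor of the lymphotoxin heterotrimer that binds Ltbr. It varied more between libraries than its neighbours. KO stage II cells had 199.5, 54.8 and 46.1 CPM, against 132.7, 86.4 and 33.4 CPM in WT stage II cells, so the genotypes overlapped and replicate 1 was highest in both. KO stage III cells had 56.2, 63.2 and 27.1 CPM, against 25.1, 25.0 and 18.5 CPM in WT stage III cells. KO stage IV cells had 3.75, 3.84 and 4.95 CPM, against 0.944, 1.79 and 1.94 CPM in WT stage IV cells. At stages III and IV all KO libraries were above all WT libraries, but the log2 fold changes of 1.10 ± 0.51 (adjusted p = 0.164) and 1.43 ± 0.62 (adjusted p = 0.801) did not pass. With no filter, edgeR did call both (1.08, adjusted p = 3.29e-06, and 1.41, 7.95e-07), whereas DESeq2 and limma voom called neither. The stage II difference was 0.25 ± 0.50, and its sign was the reverse (-0.25) in replicates 2 and 3 alone.

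**Figure D3:**
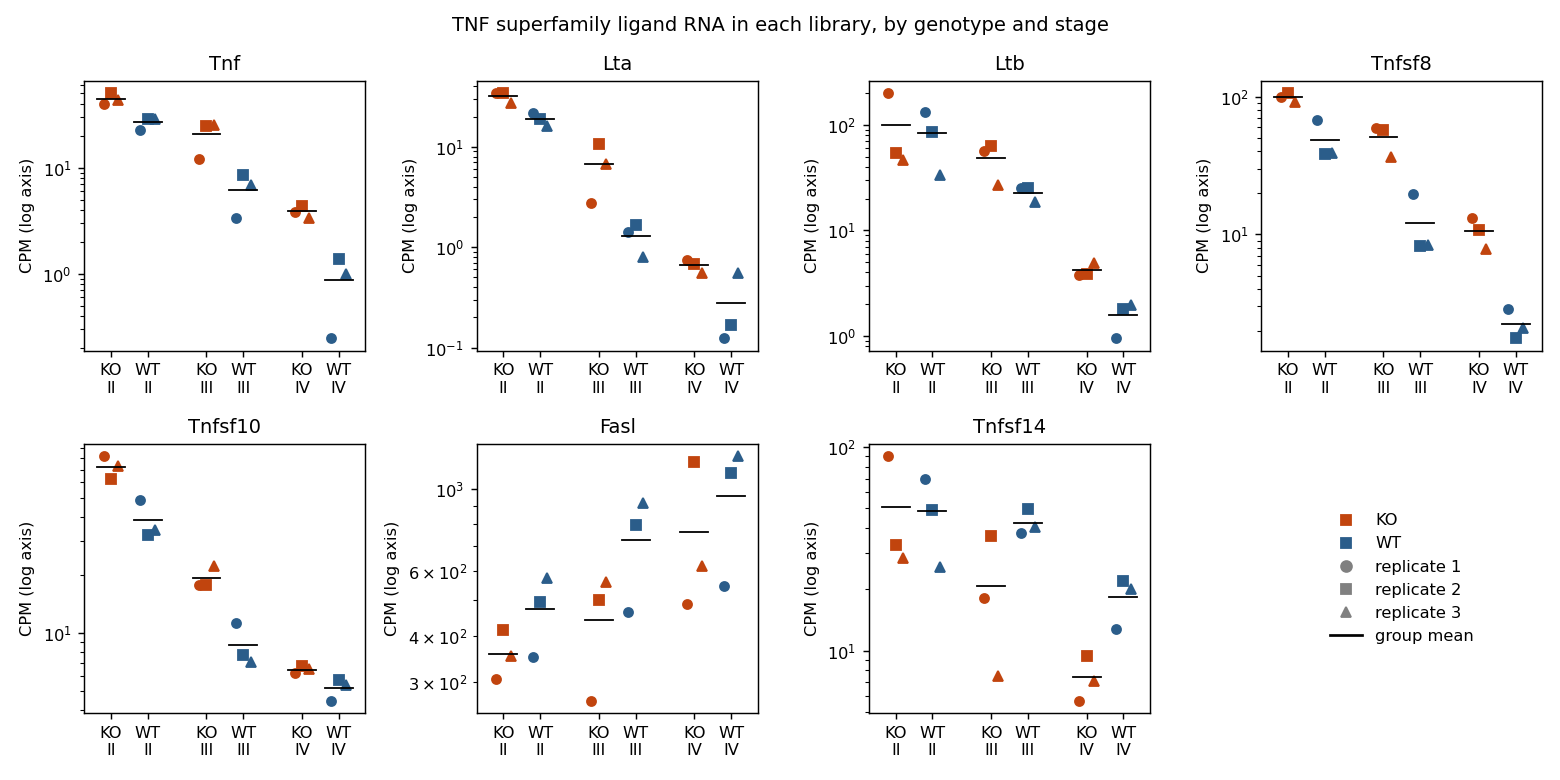
CPM of each ligand in each library (log axis, scaled separately for each gene), by genotype and stage; symbols mark replicate numbers and lines the group means. Tnf, Lta, Tnfsf8 and Tnfsf10 are higher in KO than in WT libraries at every stage, though Lta at stage IV by little. From stage II to IV, 5 ligands decline steeply, and Fasl is lowest in replicate 1 of every group.

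Tnfsf8 (CD30 ligand, chr4:63831308-63861347, minus strand) binds the receptor Tnfrsf8 and was called higher in KO cells at stages III and IV. At stage II it was at 98.7, 105.6 and 91.7 CPM in KO cells, against 67.6, 38.1 and 38.9 CPM in WT cells. KO stage III cells had 59.3, 57.5 and 36.4 CPM, against 19.5, 8.16 and 8.43 CPM in WT stage III cells. At stage IV, KO cells kept 13.1, 10.8 and 7.86 CPM, against 2.87, 1.75 and 2.09 CPM in WT cells. No KO library overlapped a WT library of its stage, and WT replicate 1 was the WT library closest to the KO level at every stage. KO over WT, the log2 fold change was 1.03 ± 0.31 at stage II (adjusted p = 0.165), 2.09 ± 0.33 at stage III (adjusted p = 0.00165) and 2.23 ± 0.36 at stage IV (adjusted p = 0.00533). In replicates 2 and 3 alone the stage II difference was also called (1.36, adjusted p = 0.0129), as it was without WT stage III replicate 1 (1.07, adjusted p = 0.0348). Limma voom called it too (1.28, adjusted p = 9.78e-05), as did edgeR with no filter (1.07, 8.41e-06) and with the replicate block (1.1, 0.0111). DESeq2 did not.

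Tnfsf10 (TRAIL, chr3:27317028-27342427, plus strand), a death ligand of immature NK cells and ILC1, was called higher in KO cells at stages II and III. KO stage II cells had 82.3, 62.4 and 72.7 CPM, against 48.8, 32.2 and 34.2 CPM in WT stage II cells. At stage III it was at 17.8, 17.7 and 22.1 CPM in KO cells, against 11.3, 7.69 and 7.07 CPM in WT cells. At stage IV the range was narrow, 6.18, 6.71 and 6.49 CPM in KO cells, against 4.43, 5.67 and 5.38 CPM in WT cells. The groups did not overlap at any stage. The log2 fold change was 0.92 ± 0.19 at stage II (adjusted p = 0.0168), 1.14 ± 0.20 at stage III (adjusted p = 0.0034) and 0.32 ± 0.20 at stage IV (adjusted p = 1). The stage II call ended when KO replicate 1 (0.83, adjusted p = 0.0982), KO replicate 3 (0.94, 0.0543), WT replicate 2 (0.85, 0.107) or WT replicate 3 (0.88, 0.0947) of that stage was left out. The stage III call ended without KO stage III replicates 1 and 3 (1.02, adjusted p = 0.0832).

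Fasl (Fas ligand, chr1:161780691-161788495, minus strand), the other death ligand, was not called between genotypes. It was at 305, 414 and 352 CPM in KO stage II, against 350, 493 and 574 CPM in WT stage II. KO stage III libraries had 266, 500 and 558 CPM, against 462, 799 and 914 CPM in WT stage III. KO stage IV libraries had 486, 1184 and 617 CPM, against 545, 1101 and 1226 CPM in WT stage IV. The genotypes overlapped at each stage, and replicate 1 was the lowest library of all 6 groups. KO over WT, the log2 fold changes were -0.40 ± 0.37, -0.72 ± 0.37 and -0.33 ± 0.37 at stages II, III and IV, with adjusted p of 0.925, 0.202 and 1. The summed level of 20 immediate early genes, such as Fos and Egr1, which respond within minutes to stimulation or handling, was 3489 to 4741 CPM in the 6 replicate 1 libraries and 5182 to 11800 CPM in the other 12. Its part in the Fasl values was not tested.

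Tnfsf14 (LIGHT, chr17:57189492-57194189, minus strand), a ligand of Ltbr and Tnfrsf14, lies far from the Tnf locus on the same chromosome. It was at 90.3, 33.1 and 28.7 CPM in KO stage II, against 69.7, 49.1 and 25.9 CPM in WT stage II. At stage III it was at 18.2, 36.6 and 7.54 CPM in KO cells, against 37.8, 49.5 and 40.4 CPM in WT cells. KO stage IV cells had 5.65, 9.46 and 7.08 CPM, against 12.8, 22.0 and 20.1 CPM in WT stage IV cells. At stages III and IV every KO library was below every WT library, the opposite order to Tnf, Lta, Ltb, Tnfsf8 and Tnfsf10. None of the differences was called: the log2 fold change was 0.07 ± 0.48 at stage II (adjusted p = 0.99), -1.03 ± 0.49 at stage III (adjusted p = 0.176) and -1.30 ± 0.51 at stage IV (adjusted p = 0.701). KO stage III replicate 2 decided the stage III value. Without that library Tnfsf14 was called lower in KO cells (-1.74, adjusted p = 0.0162). That fit rested on KO stage III replicates 1 and 3, the libraries with the fewest detected genes (14824 and 16536). With replicate 2 as the lone KO library of the stage the difference was -0.23.

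These genotype calls depended on which libraries set the spread and the WT level. Fitted on the 6 libraries of a stage alone, none of the 4 stage III calls held, although the log2 fold changes were nearly the same: 1.72 for Tnf (adjusted p = 0.29), 2.39 for Lta (0.29), 2.08 for Tnfsf8 (0.14) and 1.14 for Tnfsf10 (0.255). Tnf at stage IV did not pass in that fit either (2.15, adjusted p = 0.0883). With WT represented by replicate 1 alone, none of the 7 ligands was called at any stage, with log2 fold changes at stage III of 2.61 for Tnf, 2.25 for Lta, 1.39 for Tnfsf8 and 0.77 for Tnfsf10. In that fit, the stage IV difference was 3.93 for Tnf and 1.86 for Tnfsf8, and each WT group had 1 library, which was assumed to vary like the other groups. Among replicates 2 and 3 alone, all 7 calls held. In that fit Xist was at most 0.648 CPM in the WT libraries and at least 7.23 CPM in the KO libraries. Ncr1 was at 3574 to 4189 CPM in those WT libraries, above every KO library (at most 2216 CPM). Genotype cannot be told apart from these differences there.

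Most of the ligands fell as NK cells matured. In WT cells, 4 of 7 ligands (Tnf, Lta, Tnfsf8 and Tnfsf10) fell at stage III relative to stage II, where 1.98% of all tested genes were called lower. At stage IV relative to stage III, 4 of 7 fell (Tnf, Lta, Ltb and Tnfsf8; 2.41% of all tested genes), and at stage IV relative to stage II, 5 of 7 fell (Tnf, Lta, Ltb, Tnfsf8 and Tnfsf10; 9.82%). DESeq2 and limma voom each called all 7 ligands between WT stages IV and II, counting either direction. That count includes Fasl, whose mean was higher at WT stage IV (957 CPM) than at WT stage II (472 CPM). The share of all tested genes that DESeq2 or limma voom called is not given, and 9.82% is edgeR's share of lower calls. The median log2 fold change of the 7 ligands in WT cells was -4.42 for stage IV over II, against -0.02 over all tested genes.

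The estimated decline from stage II to stage IV in WT cells was largest for Lta, Ltb and Tnf, the ligands of the Tnf locus. Ligands were not tested against each other, and the standard error ranges of Tnf and Tnfsf8 overlapped. In KO cells the estimate for Tnf (-3.52) was near that for Tnfsf10 (-3.49). Lta was 69.4-fold lower at stage IV than at stage II (log2 -6.12 ± 0.52, adjusted p = 3.92e-07). Ltb was 54.2-fold lower (-5.76 ± 0.65, adjusted p = 9.28e-06) and Tnf 30.7-fold lower (-4.94 ± 0.45, adjusted p = 8.61e-07). Tnfsf8 was 21.4-fold lower (-4.42 ± 0.38, adjusted p = 3.76e-07), and Tnfsf10 had the smallest called decline (-2.89 ± 0.21, adjusted p = 5.88e-08). Tnfsf14 was lower by less (-1.40 ± 0.50, adjusted p = 0.0711) and did not pass, although DESeq2 called it (-1.41, adjusted p = 0.0202), as edgeR did without KO stage II replicate 1 (-1.38, adjusted p = 0.0472) or KO stage III replicate 2 (-1.36, 0.0417) or 3 (-1.36, 0.0401). Fasl alone was higher at stage IV, with a log2 fold change of 1.02 ± 0.37 (adjusted p = 0.0756) that did not pass. With the replicate number as a block, it did pass (0.97, adjusted p = 0.00441), as it did without WT stage IV replicate 1 (1.32, adjusted p = 0.0394).

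The steps differed between ligands. Tnfsf10 lost most of its RNA in WT cells between stages II and III (-2.15 ± 0.20, adjusted p = 4.94e-06) and little between stages III and IV (-0.75 ± 0.20, adjusted p = 0.0551). The later step passed without WT stage II replicate 1 (-0.75, adjusted p = 0.032), KO stage III replicate 1 (-0.78, 0.0312), 2 (-0.75, 0.0429) or 3 (-0.74, 0.0492), or WT stage III replicate 3 (-0.87, 0.0452). Ltb lost more between stages III and IV (-3.88 ± 0.62, adjusted p = 0.00112) than between stages II and III (-1.88 ± 0.52, adjusted p = 0.0639), and the earlier step passed with the replicate block (-1.73, adjusted p = 0.0429), without KO stage II replicate 1 (-1.87, 0.0151) and without WT stage II replicate 3 (-2.21, 0.0259). Tnf fell by 2.10 and then by 2.84 on the log2 scale in WT cells, Tnfsf8 by 2.01 and then by 2.41, and Lta by 3.87 and then by 2.25. The second Lta step ended as a call without WT stage III replicate 1 (-2.18, adjusted p = 0.0947) or 2 (-2.01, 0.148), or WT stage IV replicate 1 (-1.88, 0.186) or 2 (-1.99, 0.179). With WT represented by replicate 1 alone, so that 1 WT library was set against 1, none of the calls of the 2 single steps held in WT cells. The log2 fold changes there were -2.60 and -3.75 for Tnf, -3.81 and -3.47 for Lta and -1.66 and -2.75 for Tnfsf8 in the earlier and later step, -1.98 for Tnfsf10 in the earlier and -4.71 for Ltb in the later.

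**Figure D4:**
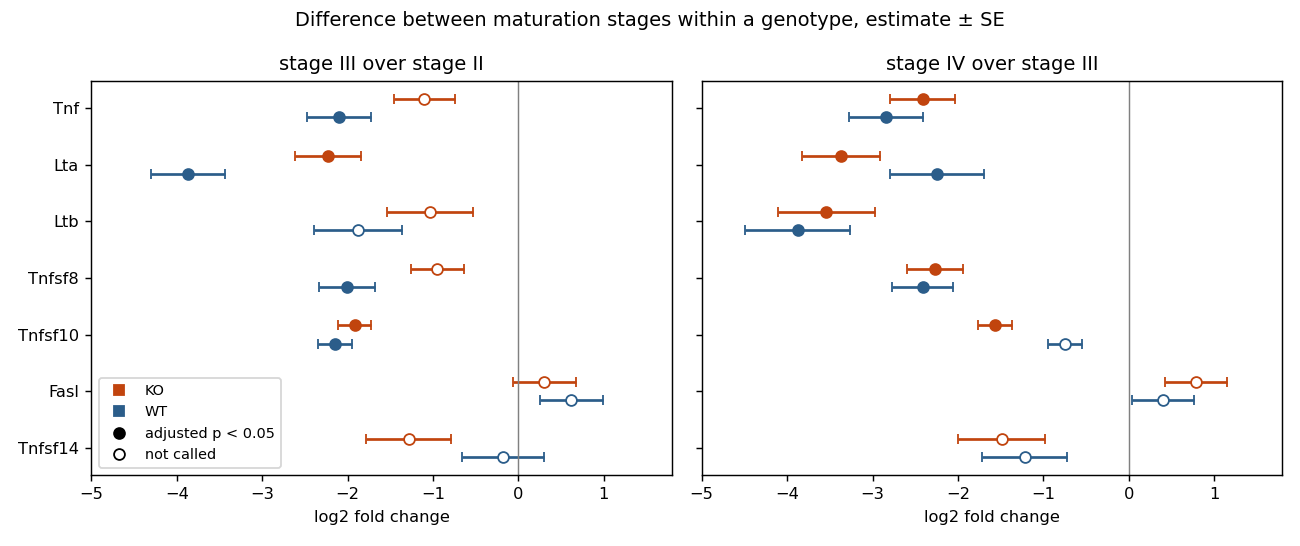
Log2 fold change of each ligand for stage III over II and for stage IV over III, in KO and WT cells, with standard errors; filled points passed an adjusted p of 0.05. In the earlier step, Tnf, Lta, Ltb and Tnfsf8 lie nearer 0 in KO than in WT cells, differences that the interaction test did not call, whereas Fasl is right of 0 in both steps and both genotypes.

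In KO cells the ligands also declined with maturation. At stage III relative to stage II, 2 of 7 fell (Lta, -2.23 ± 0.39, and Tnfsf10, -1.92 ± 0.20), where 4.83% of all tested genes were called lower. Tnf (-1.10 ± 0.36, adjusted p = 0.0591) and Tnfsf8 (-0.95 ± 0.31, adjusted p = 0.0626) did not pass, but with the replicate block 4 of 7 were called, including Tnf (-1.17, adjusted p = 0.0096) and Tnfsf8 (-0.99, adjusted p = 0.00738). Leaving out KO stage III replicate 2 raised the count to 5, with Tnf (-1.24, adjusted p = 0.0301), Tnfsf8 (-1.04, 0.0325) and Tnfsf14 (-1.98, 0.0083) added. That fit kept KO stage III replicates 1 and 3, the libraries with the fewest detected genes. The share of all tested genes called with the replicate block or in that fit is not given. Tnf also passed without WT stage IV replicate 1 (-1.09, adjusted p = 0.0372), and Tnfsf8 without replicate 1 of WT stage II (-0.97, 0.0466) or of WT stage III (-0.95, 0.023). At stage IV relative to stage III, 5 of 7 fell in KO cells (Tnf -2.41, Lta -3.37, Ltb -3.54, Tnfsf8 -2.27 and Tnfsf10 -1.57), with 11.4% of all tested genes called lower. Tnfsf14 did not pass in that step (-1.49 ± 0.51, adjusted p = 0.0538) but did without KO stage II replicate 1 (-1.49, 0.0363) or KO stage III replicate 3 (-1.87, 0.0186). At stage IV relative to stage II, 6 of 7 fell, with 8.76% of all tested genes called lower: Tnf (-3.52), Lta (-5.60), Ltb (-4.58), Tnfsf8 (-3.22), Tnfsf10 (-3.49) and Tnfsf14 (-2.77). Fasl was again higher, by 1.09 ± 0.37 (adjusted p = 0.0573), and did not pass, but did without KO stage III replicate 1 (1.07, 0.0449) or KO stage IV replicate 1 (1.34, 0.0385).

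Whether the genotype difference itself changed with stage was tested as an interaction, and none of the 7 ligands was called in any of the 3 comparisons by edgeR, DESeq2 or limma with sample quality weights. At an unadjusted p under 0.05, edgeR gave 2 ligands for stage III minus II, 1 for stage IV minus III and 3 for stage IV minus II. They were Lta (1.64 ± 0.55, adjusted p = 0.346) and Tnfsf8 (1.06 ± 0.44, adjusted p = 0.394) for stage III minus II, Tnfsf10 (-0.82 ± 0.28, adjusted p = 0.474) for stage IV minus III, and Tnf (1.42 ± 0.56, adjusted p = 0.536), Tnfsf8 (1.20 ± 0.47, adjusted p = 0.526) and Tnfsf10 (-0.59 ± 0.28, adjusted p = 0.711) for stage IV minus II. The estimates for Tnf and Tnfsf8 were thus larger at stage IV than at stage II and that for Tnfsf10 smaller. None passed adjustment over all tested genes, of which 0.0494%, 0.0283% and 0.212% were called in the 3 comparisons. Those shares are at an adjusted p under 0.05 and do not match the counts at an unadjusted p. With no filter on low counts, 3 ligands were called for stage III minus II and 4 for stage IV minus II. Without KO stage III replicate 2, Tnfsf10 was called for stage IV minus III (-0.89, adjusted p = 0.0474). The share of all tested genes called in those fits is not given.

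The B and T cell genes that could accompany Ltb and Lta, which lymphocytes of both kinds make, were also read. Of 10 B cell markers, 7, among them Ms4a1, Pax5 and Blk, were at most 2.73 CPM in every library, and the sum was mostly Ighm. Cd79b was called higher in KO cells at stage II (1.16 ± 0.25, adjusted p = 0.0229), with 22.2 to 29.4 CPM in KO cells and 10.2 to 12.4 CPM in WT cells, and at stage III (1.73 ± 0.26, adjusted p = 0.00123), with 9.97 to 19.3 CPM in KO cells and 3.46 to 6.07 CPM in WT cells. Cd22 was at 36.3 to 48.1 CPM in KO stage II and 51.8 to 60.9 CPM in WT stage II, and no higher than 8.57 CPM in any library of stages III and IV. The B cell sum was 1098 to 1327 CPM in KO stage II against 975 to 1013 CPM in WT stage II, 764 to 1409 CPM in KO stage III against 680 to 753 CPM in WT stage III, and 154 to 204 CPM in KO stage IV against 222 to 328 CPM in WT stage IV. Of 12 T cell markers, 6, among them Cd4, Cd8a, Cd8b1 and Cd5, were at most 1.58 CPM in every library, and most of the sum came from Cd28, Lef1, Cd3g and Cd3d. The T cell sum was 569 to 914 CPM in KO stage II against 661 to 1135 CPM in WT stage II, 510 to 756 CPM in KO stage III against 451 to 860 CPM in WT stage III, and 205 to 244 CPM in KO stage IV against 250 to 374 CPM in WT stage IV. Cd3d was called lower in KO cells at stage II (-1.54 ± 0.23, adjusted p = 0.00121) and Cd3g higher at stage III (0.995 ± 0.274, adjusted p = 0.0394). In WT cells at stage IV relative to stage II, 3 of the 7 tested B cell markers, 7 of the 10 tested T cell markers and 10 of 10 ILC1 markers were called lower, as were 5 of 7 ligands and 9.82% of all tested genes. The part of these cells in the genotype differences and in the decline of the ligands was not tested.

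Per kilobase of listed gene length, Fasl was the highest ligand in every group, at 185 ± 28.3 CPM per kilobase (SD, n = 3) in KO stage II and 244 ± 58.8 in WT stage II, and its libraries overlapped with no other ligand. Ltb came next at stage II, with 66.0 ± 56.9 in KO cells and 55.5 ± 32.8 in WT cells, but its range overlapped that of Tnfsf14 in both. The middle of the stage II order, Tnfsf14, Tnf, Tnfsf8 and Lta, was not resolved, since each overlapped its neighbour in both genotypes, and Tnfsf10 was lowest (13.8 ± 1.89 in KO and 7.29 ± 1.72 in WT). At stage III, Ltb was second in KO cells (32.2 ± 12.6), where its range overlapped that of Tnfsf14, and Tnfsf14 was second in WT cells (22.9 ± 3.31), above Ltb (15.1 ± 2.50) without overlap. At stage IV, Fasl reached 394 ± 192 in KO cells and 495 ± 187 in WT cells, while no other ligand exceeded 11.9 in any library. Tnfsf14 was second there, at 3.98 ± 1.03 in KO cells, where it overlapped Tnfsf8, and at 9.86 ± 2.62 in WT cells, where it did not overlap the next ligand, Ltb. Lta was last at stage IV, at 0.477 ± 0.071 in KO cells and 0.202 ± 0.169 in WT cells, where its range overlapped that of Tnf.

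The genes with the most similar profiles were found by the root mean square difference of centred log2 CPM over the 18 libraries. Tnf was most like Slco3a1 (0.60 on the log2 scale, where Tnf itself varied by 2.01 about its mean), Trib2 and Jaml. Jaml, an adhesion molecule of leukocytes, was also the nearest gene to Lta (0.67) and to Ltb (0.76). Lta was next nearest to Il2ra and Inpp4b, which stand on the ILC1 list, and Ltb to Dpp4 and Dtx1. Tnfsf8 was nearest to Adgrg3 (0.61), Slco3a1 and Tspan31, and Tnfsf10 to Ikzf2 (0.27), a transcription factor also called Helios, Tubb6 and Klk8. Fasl was nearest to Pik3r1 (0.27), Metrnl and Ccl4, a chemokine of activated NK cells. Tnfsf14 was nearest to Trbj1-3 (0.57) and Tapbpl while varying by 1.12 about its own mean.

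Other genes of the pathway were read from lists. Among 8 receptors of these ligands, 7 were tested. Fas, the receptor of Fas ligand, was called higher in KO cells at stage II (0.82 ± 0.19, adjusted p = 0.0352), with 23.9 ± 1.95 CPM in KO cells and 13.5 ± 3.89 CPM in WT cells (SD, n = 3 each). Tnfrsf1b, the second TNF receptor, was called lower at stage III (-0.69 ± 0.17, adjusted p = 0.0277), with 82.3 ± 28.5 CPM in KO cells and 133 ± 7.40 CPM in WT cells, and none was called at stage IV by edgeR (0 also at an unadjusted p under 0.05), DESeq2 or voom. In WT cells at stage IV relative to II, Ltbr, the lymphotoxin and LIGHT receptor (-3.96 ± 0.69), and Tnfrsf10b, the TRAIL receptor (-2.94 ± 0.61), fell, both from low levels. Ltbr was at 0.187 ± 0.088 CPM in WT stage IV and 3.01 ± 1.42 CPM in WT stage II. Tnfrsf1a and Tnfrsf1b were the most abundant of the receptors, at 50.9 to 167 and 58.6 to 147 CPM.

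Of 11 other ligands of the superfamily, 6 were tested and none was called between genotypes at any stage by edgeR, which gave 2, 0 and 1 at stages II, III and IV at an unadjusted p under 0.05. DESeq2 called 1 at stage II and voom 2, and neither called any at stages III and IV. In WT cells at stage IV relative to II, Tnfsf12 (TWEAK) rose by 1.24 ± 0.23 (adjusted p = 0.00133), and Tnfsf11 (RANKL), at 0.670 to 1.89 CPM in WT stage II, had no count in the 3 WT stage IV libraries. Tnfsf4 (OX40 ligand) had 7.91 to 19.1 CPM in KO libraries and 15.2 to 26.5 CPM in WT replicate 1, against 1.43 to 6.65 CPM in WT replicates 2 and 3. Of 7 genes that shed or process ligands, such as Adam17, which releases TNF from the membrane, 5 were tested and none was called in any contrast by edgeR. Between genotypes, 1, 2 and 0 had an unadjusted p under 0.05 at stages II, III and IV, DESeq2 called 1 at stage III and voom 1 at stage II. For KO stage IV against II, 2 had an unadjusted p under 0.05 in edgeR, voom called 3 and DESeq2 called 0. For KO stage IV against III the values were 2, 0 and 1 in the same order.

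Among 16 receptor signalling genes, edgeR called none between genotypes (1, 4 and 0 at an unadjusted p under 0.05 at stages II, III and IV), DESeq2 called 1 at stage III and voom 2 at stage II. In WT cells at stage IV relative to II the adaptor Traf1 fell (-0.84 ± 0.21) and Cflar, an inhibitor of caspase 8 activation, rose (0.51 ± 0.13). Of 13 NF-kappaB subunits and feedback genes, Bcl3 (0.96 ± 0.26, adjusted p = 0.0368) and Relb (0.69 ± 0.19, adjusted p = 0.0394) were called higher in KO cells at stage III and none at stage II or IV, where 2 and 0 had an unadjusted p under 0.05 and DESeq2 called 1 and 0 and voom 2 and 0. Nfkb1, which encodes the p50 subunit, fell in WT cells at stage IV relative to II (-1.20 ± 0.19, adjusted p = 0.000383). Another list held 7 RNA-binding genes and was named for the decay of AU-rich messages, a class to which Tnf RNA belongs. Not all 7 bind AU-rich words. Of these genes, Elavl1 was called higher in KO cells at stage III (0.73 ± 0.22, adjusted p = 0.0493). In WT cells Zfp36l1 fell (-0.90 ± 0.26) and Rc3h1 rose (0.59 ± 0.16) at stage IV relative to II. Voom called none of Bcl3, Relb and Elavl1 at stage III, where edgeR called 5.16% of all tested genes higher.

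These lists also held genes that were called with maturation. At stage IV relative to II, 3 of 6 tested other ligands, 5 of 13 NF-kappaB genes, 2 of 16 signalling genes, 2 of 7 receptors and 1 of 7 genes of the AU-rich decay list were called lower in KO cells, against 8.76% of all tested genes. In the same contrast in WT cells the counts were 1, 1, 1, 2 and 1 of the same lists, against 9.82%. Called higher at stage IV relative to II were 1 other ligand and 2 signalling genes in KO cells, against 6.12% of all tested genes, and 1 other ligand, 1 signalling gene and 1 gene of the AU-rich decay list in WT cells, against 5.26%. At stage III relative to II, 4 of 16 signalling genes were called lower in KO cells, against 4.83% of all tested genes. The differences in count between genotypes were not tested.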

How the data were processed

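STAR 2.0.4 and featureCounts 1.4.5 (Subread) made the counts, per the submitters' processing notes; neither build, read type nor strand setting is given in the sources used here. The deposited files hold, per the file headers, a raw count, a CPM and an RPKM for every Ensembl gene. The deposited CPM and RPKM are the authors' rescalings of the count and were not used in tests. The 7 ligands, the gene lists and the tests were chosen with earlier results of these data known. All 7 were described in every library; of pathway lists, up to 4 called genes per list were named by size of change in KO against WT and in WT stage IV against II, and Tnfsf4 was named after its values were seen.

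Counts were fitted with edgeR 4.0.16 in R 4.3.3: filter by group (14156 of 41388 genes tested), TMM scaling, 1 quasi-likelihood model with 6 group means over 18 libraries, and Benjamini-Hochberg adjustment over all tested genes. Adjusted p are from this test unless another tool is named. Standard errors are the absolute log2 fold change over the square root of F, and the prior count was 0.125. The fit was tested on simulated data. Alternatives used DESeq2 1.42.0, limma 3.58.1, other scaling and filters, fewer libraries and a replicate block. Same-numbered libraries deviated together (correlation of deviations above 0.1 in every pair) between WT stages (0.131 to 0.485) and between KO stages III and II (0.154 to 0.313), and not between KO and WT or in the other KO contrasts. Promoters are RefSeq windows for all 7 ligands. PCR copies cannot be told from molecules. A gene with a profile like that of Tnfsf14 and a cell type marker are not reported here.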

Additional observations from a re-analysis of the deposited data

How the results depend on the processing

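Over 67 values of single ligands, of which 33 were called, another scaling (RLE), DESeq2, no filter on low counts and the replicate block kept all 33 calls; KO stage III replicates 1 and 3 left out kept 32, limma voom 32 and replicates 2 and 3 alone 31. The 67 values hold every comparison between genotypes or stages, but only some interactions. Those are Tnf and Tnfsf8 for stage IV minus II, Lta for stage III minus II and Tnfsf10 for stage IV minus III. A fit on the compared groups alone kept 27, and one without the 6 WT libraries with little Xist kept 18. The last, the fit on replicates 2 and 3 and the block within genotype were chosen after seeing the data. The share of all tested genes called in each alternative fit is not given. The counts below therefore do not set the ligands apart from other genes. Ligands called, KO against WT, at stage II (1) were 3 with no filter, 2 with the replicate block, 3 with the compared groups alone, 4 with voom, 0 without the low-Xist libraries, 2 in replicates 2 and 3, and 0 to 2 with 1 library left out. At stage III (4, all higher in KO) they were 7 with no filter (5 higher and 2 lower), 0 with the compared groups alone and 0 without the low-Xist libraries. At stage IV (2) they were 4 (3 higher and 1 lower), 1 and 0 in the same fits, and 1 to 2 with 1 library left out. Without the low-Xist libraries, WT stage III against II (4) and IV against III (4) gave 0. KO stage III against II (2) gave 6 with no filter, 4 with the replicate block, 4 with the block within genotype, 1 with the compared groups alone, 5 with DESeq2, 4 in replicates 2 and 3, and 2 to 5 with 1 library left out. The interactions (0) gave 3 (stage III minus II) and 4 (IV minus II) with no filter, and 0 to 1 (IV minus III) with 1 library left out. Signs turned only in values that were not called. KO against WT at stage II, Ltb (0.25) was -0.27 without the low-Xist libraries, -0.25 in replicates 2 and 3 and -0.73 to 0.74 with 1 library left out; Tnfsf14 (0.07) was -0.33, -0.28 and -0.63 to 0.43. Fasl was 0.16 at stage II and 0.47 at stage IV without the low-Xist libraries. Tnfsf14 in WT stage III against II (-0.18) was 0.20 with voom, 0.26 in replicates 2 and 3 and -0.43 to 0.18 with 1 library left out. The cause was not tested. Where numbers did not pair the libraries, the replicate block added Tnfsf8 at stage II (1.10) and Fasl at stage III (-0.73), KO against WT, and Fasl in KO stage IV against III (0.79) and against II (1.02); beyond these and those in the report it changed no other call. Lta at stage IV, with 3 to 17 counts per library, is the value most limited by depth.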
